A study of Mus musculus with 15 samples.

Results

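H3K27ac regions of cultured mouse eosinophils were set against those of macrophages. The eosinophil regions were the 17787 stretches of the mm9 genome called in both BALB/c H3K27ac libraries, of 24785 called in either, and the macrophage regions were the 59401 peaks of 1 deposited H3K27ac list whose name gives the cells as mBMDM, here taken as bone-marrow-derived macrophages. A region was shared if it overlapped a region of the other cell type by at least 1 bp and private if it did not. It was promoter-like if it overlapped an H3K4me3 region called in both BALB/c libraries, and distal otherwise. This gave 6 classes, none of which was chosen on PU.1, accessibility or the C57 libraries.

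The series holds 15 samples, all from unselected mouse bone marrow cultured for 14 days, with SCF and FLT3L at 100 ng/mL each on days 0 to 3 and IL-5 at 10 ng/mL on days 4 to 14. BALB/c cells gave 2 libraries each for RNA-seq, ATAC-seq and ChIP-seq of H3K27ac, H3K4me3 and H3K4me1, and 1 library for PU.1. Cells titled C57, with the strain label BL6/57, gave 2 libraries each for ATAC-seq and H3K27ac. Nothing in the labels ties the replicates to separate cultures or animals, so their spread may be technical. The macrophage lists, like the neutrophil and immature granulocyte lists used for comparison, came from re-analysed outside series with 1 library each, and the sources used here do not give their strain, treatment or antibodies. With 2 eosinophil libraries against 1 macrophage library, no test over libraries was made. Intervals are 95% Wilson intervals, which cover counting error over regions only, and regions are not replicates.

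H3K27ac is an acetyl mark on histone H3 found at active promoters and active enhancers, whereas H3K4me3 marks promoters and H3K4me1 is spread over enhancers and promoter flanks. PU.1, encoded by Spi1, is an ETS-family DNA-binding factor that occupies many enhancers in myeloid cells and that macrophages need to develop. Eosinophils and macrophages both descend from myeloid progenitors and both express PU.1, but eosinophils are granulocytes that depend on IL-5, and macrophages are phagocytes that depend on signals through the receptor Csf1r.

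The eosinophil label was checked against RNA of the same kind of culture, which came from other libraries than the ChIP. All 11 eosinophil markers reached 1 CPM in both BALB/c RNA libraries, with a summed level of 13837 and 14145 CPM. Prg2, a major granule protein, was at 3910 and 4195 CPM and Epx, the eosinophil peroxidase, at 2883 and 2649 CPM. Of 16 macrophage markers, 15 also reached 1 CPM, with a summed level of 8311 and 10008 CPM. Csf1r, the macrophage growth factor receptor, was at 943 and 1053 CPM, and Adgre1, which encodes F4/80 and is also expressed by eosinophils, at 1357 and 1558 CPM. Gpnmb and Lyz2 were the highest of the 16, at 1610 and 2242 CPM and at 1429 and 1921 CPM, and Apoe was at 1020 and 1232 CPM. C1qa, a complement gene typical of macrophages, was lower, at 40.6 and 35.9 CPM. Marco, a scavenger receptor, had no count in either library, which allows up to 0.0744 and 0.0985 CPM (3 counts). RNA of macrophage markers was thus present beside that of eosinophil markers, and its part in the H3K27ac shared with macrophages was not tested. All 8 neutrophil markers were detected (summed level 1341 and 1216 CPM), as were 4 of 5 stromal markers (2417 and 630 CPM).

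Most acetylated regions of the eosinophils were also acetylated in macrophages, whereas, in the lists at their deposited lengths, most acetylated regions of the macrophages were not in eosinophils. In BALB/c replicate 1, 79.2% of the 20467 peaks overlapped a macrophage peak, and in replicate 2, 75.2% of 23203. Of the regions called in both libraries, 14695 of 17787 were shared, or 82.6% (interval 82.1% to 83.2%), leaving 3092 private. Seen from the other side, 16767 of the 59401 macrophage peaks overlapped an eosinophil region, or 28.2% (27.9% to 28.6%), leaving 42634 private. The macrophage list was the longer one, covering 53.5 Mb against 21.1 Mb for the eosinophil regions. The 28.2% depended on list length and threshold. It was 55.6%, so that most macrophage peaks were then shared, when every H3K27ac list was held to its 20467 highest-scoring peaks, and 16.9% when every list was held to a −log10 q of at least 3.

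Sharing was far more frequent at promoter-like than at distal regions. Among promoter-like eosinophil regions, 11249 of 12000 were shared, or 93.7% (93.3% to 94.2%). Among distal eosinophil regions, 3446 of 5787 were shared, or 59.5% (58.3% to 60.8%). The difference was 34.2 percentage points. It had the same direction in each eosinophil library alone: promoter-like against distal peaks were shared at 92.9% against 55.9% in BALB/c replicate 1 and 92.1% against 52.5% in replicate 2. The C57 libraries, which took no part in defining the regions, gave 95.6% against 66.0% and 92.1% against 53.5%. Across the 2 BALB/c libraries the shares were 92.5% ± 0.524 (SD, n = 2) and 54.2% ± 2.40 (SD, n = 2), a gap larger than the spread between libraries.

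On the macrophage side the same split was steeper. Of 17242 promoter-like macrophage peaks, 12757 were shared, or 74.0% (73.3% to 74.6%). Of 42159 distal macrophage peaks, 4010 were shared, or 9.51% (9.24% to 9.80%). The split used eosinophil H3K4me3 for both cell types, so a macrophage promoter without H3K4me3 in eosinophils was counted as distal. The macrophage-private distal class was the most numerous, with 38149 peaks, against 2341 eosinophil-private distal regions. There were 4485 macrophage-private and 751 eosinophil-private promoter-like regions. Distal regions could still overlap H3K4me3 called in 1 BALB/c library alone. This held for 579 of the 3446 shared distal and 212 of the 2341 eosinophil-private distal regions.

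**Figure D1:**
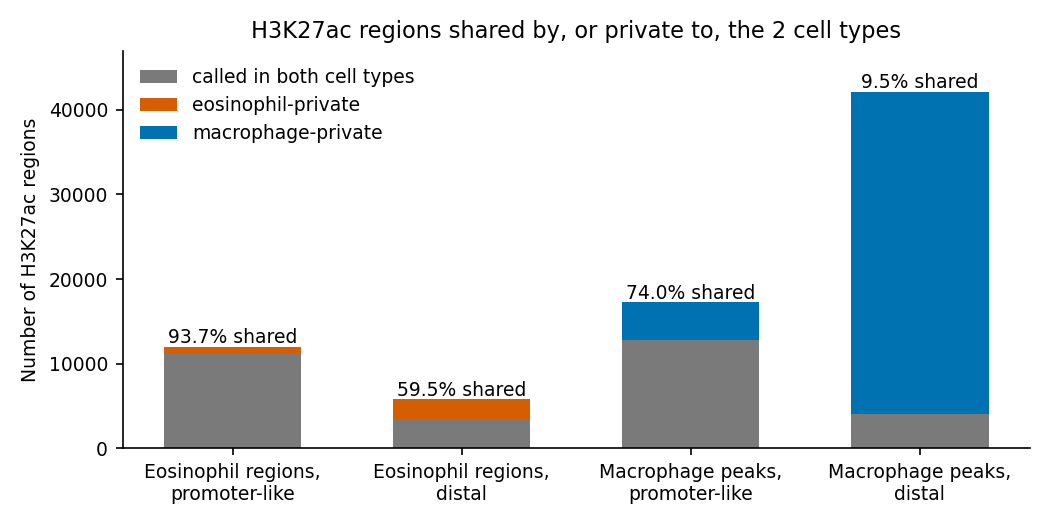
Number of H3K27ac regions (y axis) in eosinophils and macrophages, split into promoter-like and distal, with the part called in both cell types in grey and the private part in colour. Promoter-like eosinophil regions were 93.7% shared and distal ones 59.5%, while 38149 of the 42159 distal macrophage peaks were private.

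The shared share of both kinds of eosinophil region was followed as more macrophage peaks were considered. It cannot fall, because each longer list contains the shorter ones, so only the size of the rise is informative. With the 5000 highest-scoring macrophage peaks, 29.8% of promoter-like and 5.53% of distal eosinophil regions were matched. With the top 20000, these were 75.9% and 28.3%. With 50000 of the 59401 they were 92.3% and 54.3%. Over the rest of the list the distal share rose further, to 59.5%, whereas the promoter-like share ended at 93.7%. From the macrophage side, 79.0% of the top 5000 peaks were matched by an eosinophil region, and 57.3% of the top 20000.

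**Figure D2:**
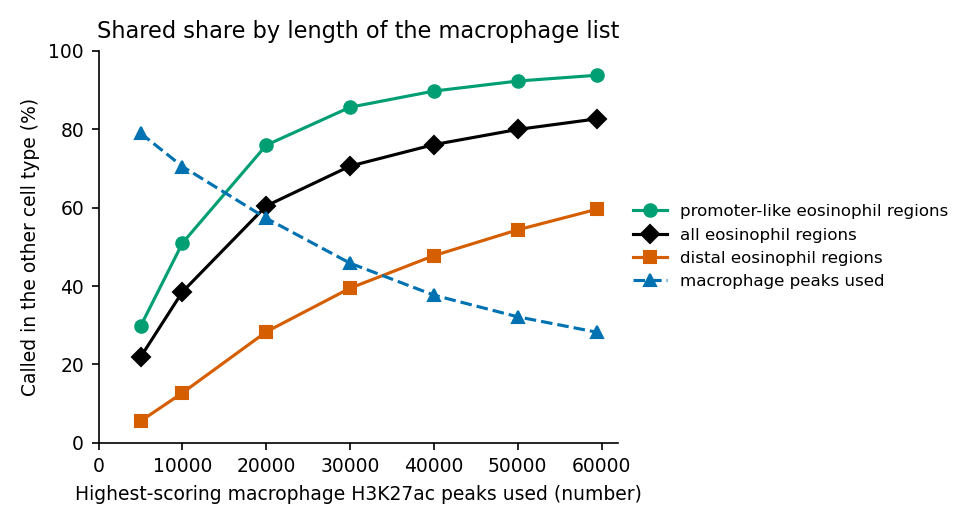
Percent of eosinophil H3K27ac regions overlapping a macrophage peak (all, promoter-like, distal) and percent of the macrophage peaks used that overlap an eosinophil region (y axis), against the number of highest-scoring macrophage peaks used (x axis). The promoter-like curve lies above the distal curve at every length and flattens to 93.7%, while the distal curve is still rising at 59.5%.

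Enrichment, the fold given by the authors for each peak, related to sharing in opposite directions at the 2 kinds of eosinophil region. When promoter-like regions were ranked by the lower of their 2 folds and divided into 5 equal groups, 88.8% of the weakest group and 98.0% of the strongest were shared. Distal regions ran the other way, from 68.4% in the weakest group to 55.1% in the strongest. The median fold was 3.15 in shared distal and 3.24 in eosinophil-private distal regions. By significance the private class was the more reduced: with a −log10 q of at least 3 in every list it held 350 regions in place of 2341, and the shared distal class 1002 in place of 3446. Shared distal regions were also wider, with a median of 934 bp against 830 bp. Among macrophage peaks both kinds rose with fold, from 59.1% to 84.1% at promoter-like and from 7.97% to 12.7% at distal peaks.

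Most overlaps were broad rather than marginal. In shared distal regions, macrophage peaks covered a median of 89.2% of the region, and in shared promoter-like regions 92.6%. Only 21 distal and 15 promoter-like regions were shared by 100 bp or less. On the other side of the limit, 18 distal and 18 promoter-like private regions lay within 100 bp of a macrophage peak. Of the distal ones just inside, 76.2% carried an eosinophil PU.1 peak and 47.6% a macrophage PU.1 peak, and just outside 38.9% and 38.9%. The median distance from an eosinophil-private distal region to the nearest macrophage peak was 10.7 kb, and 187 of 2341 (7.99%) lay within 1 kb.

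The shared promoter-like regions with the highest enrichment were called with high fold in nearly every list. No filter against sequences with high signal in every assay was applied here to any class. Whether such signal accounts for these folds was not tested. The first shared promoter-like region lay at chr6:103598936-103599471 in mm9. Its H3K27ac fold was 17.1 and 20.5 in the BALB/c libraries, 20.9 and 26.0 in the C57 libraries and 16.5 in macrophages, and its PU.1 fold was 41.1 in eosinophils and 20.6 in macrophages. The second, at chr12:3109692-3110276, was similar, with an H3K27ac fold of 16.9 and 19.0 in BALB/c and 15.3 in macrophages. All 5 leading regions of this class also carried H3K4me1 in both libraries, a mark found at only 13.3% of the class, and their ATAC fold ranged from 18.3 to 26.3. No mm9 annotation was used here, so genes at these positions are not named.

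Shared distal regions had less extreme leaders. The first, at chr8:27079826-27080606, had an H3K27ac fold of 9.07 and 12.4 in BALB/c, 3.69 and 5.42 in C57 and 2.77 in macrophages. It carried PU.1 in both cell types, with a fold of 13.3 in macrophages. The fourth, at chr16:50030368-50031008, had an H3K27ac fold of 7.20 and 8.85 in BALB/c and 9.49 in macrophages, with PU.1 in both cell types at 12.0 and 7.14. All 5 carried eosinophil PU.1, and 2 of the 5 carried macrophage PU.1. None of the 5 was called in the immature granulocyte list.

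PU.1 of both cell types was frequent where acetylation was shared, and at private distal regions the PU.1 list of the acetylated cell type was the more frequent one. PU.1 had no part in choosing the regions. The eosinophil list held 62236 PU.1 peaks and the macrophage list 135034, each from 1 library, so PU.1 itself has no spread. The 2 lists were also cut at unlike thresholds. Their lowest −log10 q was 2.00 in eosinophils and 1.01 in macrophages, so the macrophage list admits less significant peaks. Over all eosinophil regions 87.8% carried eosinophil PU.1 and 80.6% macrophage PU.1, and over all macrophage peaks 52.4% and 75.5%. At shared distal regions, eosinophil PU.1 was present at 88.2% (87.1% to 89.3%) and macrophage PU.1 at 87.7% (86.6% to 88.8%). At eosinophil-private distal regions, eosinophil PU.1 was at 69.2% (67.3% to 71.0%) and macrophage PU.1 at 33.4% (31.5% to 35.3%). At macrophage-private distal peaks the order turned round, with eosinophil PU.1 at 36.3% (35.8% to 36.7%) and macrophage PU.1 at 70.7% (70.2% to 71.1%).

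From shared to eosinophil-private distal regions, eosinophil PU.1 was lower by 19.0 points and macrophage PU.1 by 54.3 points. Both directions held in each library alone. In BALB/c replicate 1, eosinophil PU.1 was at 82.2% of shared and 57.5% of private distal peaks, and macrophage PU.1 at 78.6% and 26.2%. In replicate 2, these were 81.2% and 55.6%, and 79.2% and 28.0%. In the C57 libraries, eosinophil PU.1 was at 81.2% and 65.2%, and 74.9% and 51.1%, and macrophage PU.1 at 79.8% and 29.5%, and 80.1% and 28.7%. With the macrophage PU.1 list held to the 62236 peaks of the eosinophil list, macrophage PU.1 was at 74.3% of shared, 17.9% of eosinophil-private and 55.5% of macrophage-private distal regions, so the order within each private distal class stayed and the 2 lists no longer matched at shared regions. The size of the eosinophil PU.1 difference varied: with regions called in both C57 libraries in place of BALB/c it was 10.8 points. Between shared distal and macrophage-private distal regions, eosinophil PU.1 differed by 52.0 points, and by 32.9 points with H3K27ac lists of equal length.

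At promoter-like regions the order of the 2 PU.1 lists at macrophage-private peaks depended on list length. Shared promoter-like regions carried eosinophil PU.1 at 92.4% and macrophage PU.1 at 91.1%. The eosinophil-private ones carried them at 74.3% (71.1% to 77.3%) and 38.9% (35.5% to 42.4%). At macrophage-private promoter-like peaks, eosinophil PU.1 was at 50.7% and macrophage PU.1 at 68.2%. With PU.1 lists of equal length, macrophage PU.1 was at 64.9% of shared, 19.6% of eosinophil-private and 41.3% of macrophage-private promoter-like regions, the last below eosinophil PU.1.

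**Figure D3:**
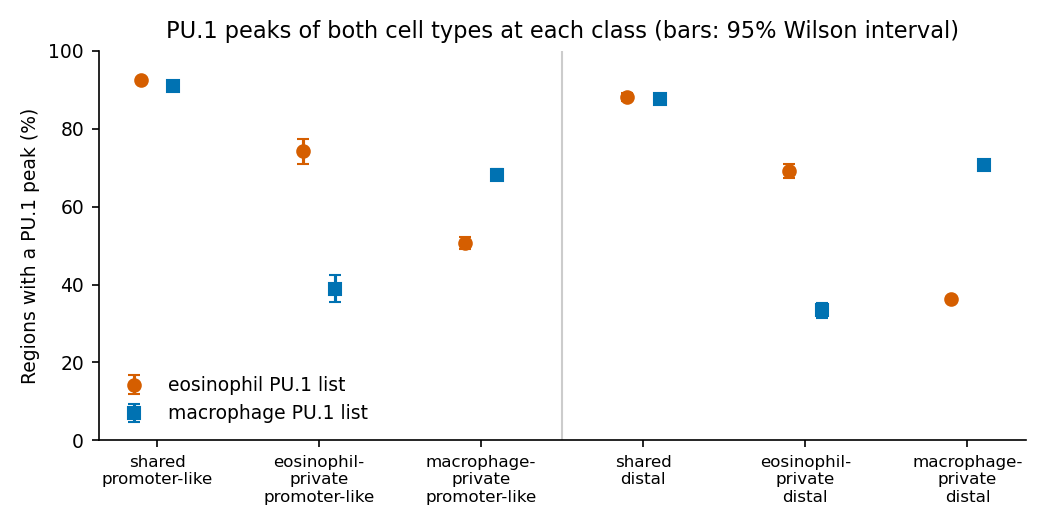
Percent of regions in each of the 6 classes that overlap a PU.1 peak of eosinophils (circles) or macrophages (squares) at the deposited list lengths, with 95% Wilson intervals. The symbols nearly coincide at shared regions, eosinophil PU.1 lies higher at eosinophil-private regions and macrophage PU.1 higher at macrophage-private ones, but with PU.1 lists of equal length macrophage PU.1 is lower at both shared classes (64.9% and 74.3%) and at macrophage-private promoter-like regions (41.3%).

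By combination, PU.1 was called in both cell types at 82.0% of shared distal regions, in eosinophils only at 6.21%, in macrophages only at 5.66% and in neither at 6.09%. The eosinophil-private distal class was more mixed: 31.7% had PU.1 in both, 37.5% in eosinophils only, 1.75% in macrophages only and 29.0% in neither. Macrophage-private distal peaks mirrored this, with 34.4% in both, 36.2% in macrophages only, 1.83% in eosinophils only and 27.5% in neither. A region with PU.1 called in both cell types was therefore not always called acetylated in both: 741 eosinophil-private and 13135 macrophage-private distal regions had PU.1 of both. The PU.1 peaks of the 2 cell types had to overlap the region, but not each other. Of the 13135, 1542 overlapped an H3K27ac peak of 1 BALB/c library.

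Read the other way, the presence of macrophage PU.1 separated distal eosinophil regions that were acetylated in macrophages from those that were not. With PU.1 in both cell types, 2827 of 3568 regions were shared, or 79.2% (77.9% to 80.5%). With PU.1 in macrophages only, 195 of 236 were shared, or 82.6% (77.3% to 86.9%). With PU.1 in eosinophils only, 214 of 1093 were shared, or 19.6% (17.3% to 22.0%), and with PU.1 in neither, 210 of 890, or 23.6% (20.9% to 26.5%). The first 2 intervals overlap each other and lie far above the last 2, which also overlap. This comparison was chosen after the values had been seen and draws on the same counts as the PU.1 shares above.

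Each of the 4 eosinophil libraries gave the same separation when used alone. With PU.1 in both, 79.3% and 75.9% of distal peaks were shared in the BALB/c libraries and 83.9% and 75.9% in C57. With PU.1 in eosinophils only, the shares were 27.4% and 24.9% in BALB/c and 31.5% and 21.3% in C57. With PU.1 in neither, they were 26.5% and 23.6%, and 40.2% and 25.9%. The difference between regions with PU.1 in macrophages only and in eosinophils only was 63.0 points, and 34.8 points with H3K27ac lists of equal length.

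**Figure D4:**
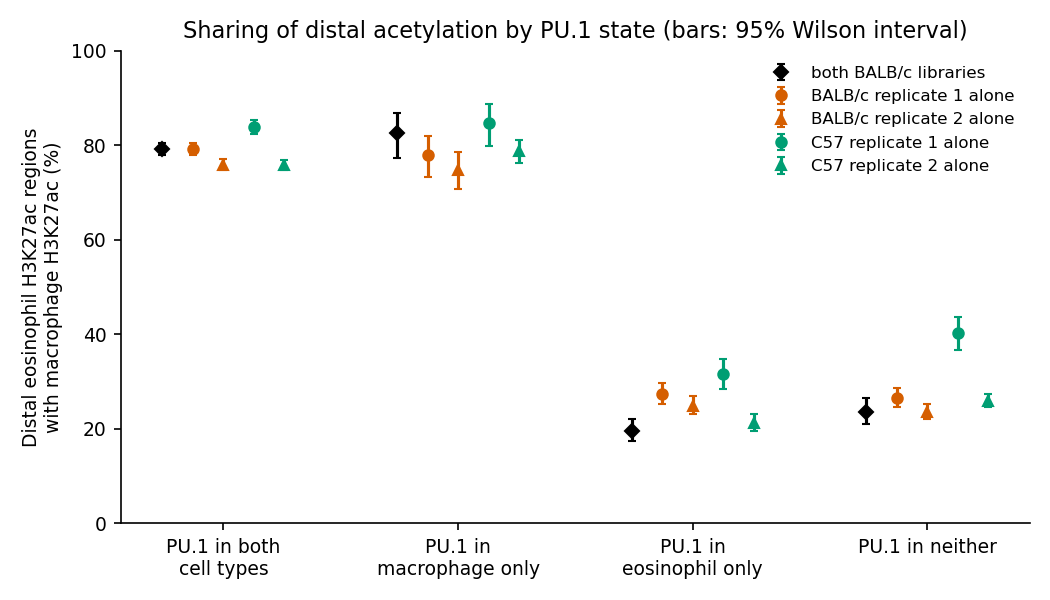
Percent of distal eosinophil H3K27ac regions that overlap a macrophage H3K27ac peak (y axis), by the cell types in which PU.1 was called there (x axis), for regions called in both BALB/c libraries and for the peaks of each BALB/c and C57 library alone, with 95% Wilson intervals. Every symbol lies at 74.8% or higher where macrophage PU.1 was called and at 40.2% or lower where it was not.

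Among accessible distal eosinophil regions the separation remained. With PU.1 in neither cell type, 39.7% of these were shared, against 18.8% of 686 without an ATAC region in both BALB/c libraries. Among distal eosinophil regions with an ATAC region in both BALB/c libraries, 82.4% of 2676 with PU.1 in both cell types were shared, 84.1% of 69 with macrophage PU.1 only, 18.2% of 631 with eosinophil PU.1 only and 39.7% of 204 with neither. At promoter-like regions the shares were 97.3%, 96.2%, 65.1% and 72.9% in the same order. Distal macrophage peaks gave the mirror image, in which eosinophil PU.1 separated shared from private peaks: 19.9% were shared with PU.1 in both and 23.5% with eosinophil PU.1 only, against 1.68% with macrophage PU.1 only and 2.81% with neither.

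PU.1 peaks at shared distal regions also ranked higher within their own lists. The strongest PU.1 peak of each region was ranked by score as a percentile of its list. In the eosinophil PU.1 list its median was 83.6 in shared distal, 70.3 in eosinophil-private distal and 60.6 in macrophage-private distal regions. Region width and the number of PU.1 peaks per region were not adjusted for. In the macrophage PU.1 list the medians were 86.0, 57.9 and 79.6. Among the distal classes, macrophage PU.1 thus ranked lowest at eosinophil-private regions and eosinophil PU.1 lowest at macrophage-private regions, even where a peak was called. The ChIP libraries of the eosinophils were made with a transposase, which cuts open DNA most readily, and the sources used here do not say how the macrophage libraries were made. A difference between the protocols and a difference between the cell types therefore cannot be told apart.

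Accessibility in eosinophils followed eosinophil acetylation. The eosinophil H3K27ac libraries that define the classes were themselves made with a transposase. Its part in the ATAC shares was not tested. Over all eosinophil regions, 83.7% overlapped an ATAC region called in both BALB/c libraries, and over all macrophage peaks 36.2%. At promoter-like regions the share was 95.7% for shared, 73.5% for eosinophil-private and 62.9% for macrophage-private ones. At distal regions it was 71.3% (69.8% to 72.8%), 47.9% (45.9% to 50.0%) and 9.92% (9.62% to 10.2%). The eosinophil-private distal share exceeded the macrophage-private one by 38.0 points. That difference was 23.8 points with the H3K27ac peaks of BALB/c replicate 2 alone, 28.9 points with those of replicate 1 alone, and 23.7 points with regions called in either library. Among the 13135 macrophage-private distal peaks with PU.1 in both cell types, 23.0% were accessible in eosinophils, against 63.7% of the 741 eosinophil-private and 78.0% of the 2827 shared ones.

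H3K4me1 was more frequent at the distal classes of the eosinophils. It was called in both BALB/c libraries at 25.0% of all eosinophil regions and 11.4% of all macrophage peaks. Shared distal regions carried it at 50.3% (48.7% to 52.0%) and eosinophil-private distal regions at 43.9% (41.9% to 45.9%). Macrophage-private distal peaks carried it at 7.43%. Among promoter-like regions it was most frequent in the eosinophil-private class, at 24.0% (21.1% to 27.2%), against 13.3% of the shared class.

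The C57 libraries called shared regions again more often than private ones. Of all eosinophil regions, 73.4% overlapped an H3K27ac region called in both C57 libraries and 93.5% one called in either. For all macrophage peaks these shares were 26.1% and 38.8%. At shared promoter-like regions 88.5% were called in both C57 libraries, and at eosinophil-private promoter-like regions 51.4%. At shared distal regions 55.5% were called in both and 90.0% in either. At eosinophil-private distal regions 34.6% were called in both and 75.7% in either, and at macrophage-private distal peaks 2.65% and 12.4%. The C57 lists held 14992 and 27527 peaks, so the shares in both were limited by the shorter list.

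**Figure D5:**
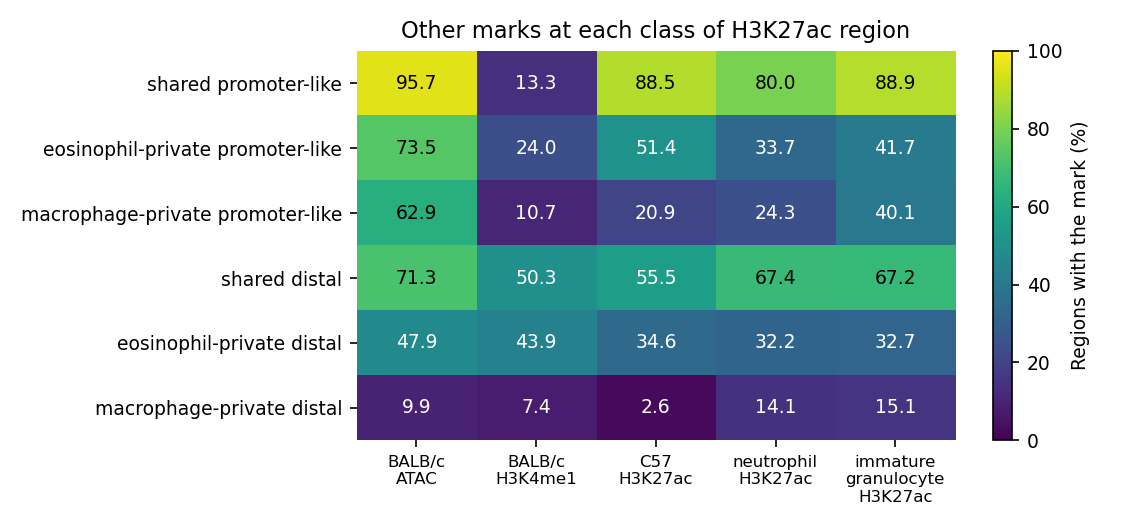
Percent of regions in each of the 6 classes (rows) that overlap BALB/c ATAC, BALB/c H3K4me1 or C57 H3K27ac regions, each called in both libraries, or H3K27ac peaks of neutrophils or immature granulocytes, 1 list each (columns). Within promoter-like and within distal regions the shared class is the highest in every column, except for H3K4me1 at promoter-like regions, and macrophage-private distal peaks are the lowest in every column.

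Eosinophil-private distal regions, the smaller of the distal classes, lay farther from one another than shared ones. The median distance to the next region of the same class was 101 kb, against 47.4 kb for shared distal regions, and 13.7% had one within 10 kb, against 17.2%. These distances depend on the number of regions in a class, and no expected spacing was computed. Their median distance to an H3K4me3 region was 21.4 kb, against 15.9 kb. In 100 kb windows, the 1816 windows with such a region held a median of 1, and the highest number, 5, was reached in 5 windows. Among these, chr11:61900001-62000000, held 5 eosinophil-private distal regions, all with eosinophil PU.1 and 1 with macrophage PU.1, beside 1 shared region and 1 macrophage-private peak. Another, chr17:86700001-86800000, held 5 with eosinophil PU.1 at all 5, beside 3 shared regions. A further one, chr11:9000001-9100000, held 5, of which 2 carried eosinophil PU.1. By chromosome, the private share of distal eosinophil regions ran from 36.3% on X (33 of 91) to 46.0% on chromosome 13 (115 of 250), and the intervals of these extremes, 27.1% to 46.5% and 39.9% to 52.2%, overlapped.

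The eosinophil-private regions with the highest fold were not uniform. The first promoter-like one, at chr17:24479579-24480123, had an H3K27ac fold of 8.24 and 9.25 in BALB/c and an eosinophil PU.1 fold of 17.0, with no macrophage PU.1 peak, and was called in neither C57 library. The third, at chr19:45724415-45724908, had a fold of 7.11 and 8.22 in BALB/c and 4.57 and 8.58 in C57, and PU.1 in both cell types at 19.7 in eosinophils and 5.59 in macrophages. All 5 promoter-like leaders carried eosinophil PU.1 and ATAC in both libraries. Among the 5 distal leaders, 2 carried eosinophil PU.1. The second, at chr3:86714166-86714686, had a fold of 7.29 and 7.57, an eosinophil PU.1 fold of 10.6 and no H3K27ac peak in C57, neutrophils or immature granulocytes. The fifth, at chr1:95186172-95186881, had a fold of 5.99 and 7.69 in BALB/c and 6.47 and 6.67 in C57, 3.60 in neutrophils and 10.2 in immature granulocytes.

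Nearly as many eosinophil-private distal regions were acetylated in another granulocyte as were not. Neutrophil H3K27ac was called at 69.3% of all eosinophil regions and 32.2% of all macrophage peaks, and immature granulocyte H3K27ac at 75.3% and 35.3%. Of the 2341 eosinophil-private distal regions, 1145 overlapped a peak in at least 1 of these lists, or 48.9% (46.9% to 50.9%), and 1196 in neither. Of shared distal regions, 83.8% (82.5% to 85.0%) overlapped at least 1, and of macrophage-private distal peaks 23.9% (23.5% to 24.3%). Eosinophil PU.1 was similar in both parts of the eosinophil-private distal class, at 67.6% (64.9% to 70.2%) of those without and 70.8% (68.1% to 73.4%) of those with granulocyte acetylation. Neutrophil PU.1, called at 71.9% of all eosinophil regions and 50.6% of all macrophage peaks, differed, at 31.9% (29.4% to 34.6%) and 67.5% (64.7% to 70.2%).

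By the Jaccard index (shared length over combined length), the eosinophil libraries lay nearer the neutrophil list than the macrophage list at full length. This gap narrowed at equal length. The 2 BALB/c libraries had an index of 0.650 with each other. With the macrophage list it was 0.239 and 0.267, with neutrophils 0.340 and 0.355, and with immature granulocytes 0.309 and 0.312. When each list was held to its 14992 highest-scoring peaks, the values were 0.321 and 0.332 for macrophages, 0.332 and 0.343 for neutrophils and 0.291 and 0.286 for immature granulocytes. At equal length the gap between neutrophils and macrophages was thus 0.0113 and 0.0104, against 0.102 and 0.0877 at full length. In the C57 libraries it was 0.0422 and 0.0249, against 0.128 and 0.0756. The share of eosinophil length covered ran the other way at full length. In the BALB/c libraries the macrophage list covered 75.8% and 71.6% of the base pairs, and the neutrophil list 58.9% and 54.4%.

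Macrophage-private distal peaks were narrow, and many lay close to one another. Their median width was 584 bp, against 961 bp for the distal macrophage peaks that were shared, and their median fold 3.15 against 3.40. The median distance to the next peak of the class was 2.33 kb, and 73.9% had one within 10 kb. Joining macrophage peaks up to 1 kb apart left 42881 regions, of which 33.1% overlapped an eosinophil region. Of the 9438 windows of 100 kb with such a peak, 2946 held 5 or more. The fullest, chr16:24900001-25000000, held 26, of which 19 carried macrophage PU.1 and 2 eosinophil PU.1, and no eosinophil region. In chr10:127000001-127100000 there were 25, with macrophage PU.1 at 21 and eosinophil PU.1 at 9, and in chr4:144500001-144600000 there were 25, with macrophage PU.1 at 10 and eosinophil PU.1 at 5.

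Some of the macrophage-private peaks had acetylation in eosinophils that was called only once. Of the 38149 distal ones, 2133 overlapped a peak of 1 BALB/c library. These carried eosinophil PU.1 at 76.9% and were wider, with a median of 888 bp, whereas the other 36016 carried it at 33.9%. Among the 5 distal leaders by fold, at 12.5 to 14.0, none was called in a BALB/c library and none carried eosinophil PU.1. The first, at chr19:8393296-8393881, had a macrophage H3K27ac fold of 14.0 and no peak in the eosinophil, granulocyte H3K27ac or macrophage PU.1 lists. The fifth, at chr15:28304305-28304809, had an H3K27ac fold of 12.5 and a macrophage PU.1 fold of 11.7. The first promoter-like leader, at chr17:45643686-45644200, had a macrophage fold of 14.6 and a fold of 4.34 in BALB/c replicate 2 alone, with PU.1 in both cell types at 5.73 and 5.60.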

How the data were processed

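The 15 samples were cultured mouse eosinophils, and the comparison used the deposited peak lists of BALB/c H3K27ac, H3K4me3, H3K4me1, ATAC and PU.1, C57 H3K27ac, and the outside macrophage, neutrophil and immature granulocyte lists, named from their deposited names. Peaks had been called per library. For every peak the authors' lists hold a deposited score, a fold over background and a −log10 q, which served only for ranking and filtering inside 1 list. The deposited RNA values are read counts per gene without normalization, 40306679 and 30465490 in all for the BALB/c libraries, and 2 columns of per-sample values of no sample of this series were not used. The submitters' processing notes name mm9, HOMER, Bowtie2 2.3.4.1, bedtools 2.27.0, Trim Galore 0.4.2 and, among RNA tools, STAR 2.5 and featureCounts, with no roles. The sources used here do not give the peak caller or the read depth behind the lists.

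Overlaps were computed with Python 3.11.15, numpy 2.4.6 and pandas 2.3.3, and figures with matplotlib 3.10.9. Overlapping peaks of the 2 BALB/c libraries were merged, and merged regions with a peak of both were kept. Overlap code was tested on simulated data, where 9 of 9 planted counts were recovered over 20000 sites. CPM were the counts divided by the library total (CPM scale). Named regions were the 5 with the highest fold per class (for eosinophils the lower of the 2 BALB/c values), and named windows the 3 fullest of 100 kb per cell type, with ties taken in file order. Chromosome 18 was left out of named regions. Sequences and genes at the regions were not analysed here. The members and marker lists were chosen with earlier results of these data known. Alternatives varied thresholds, list lengths, overlap, H3K4me3 rule, strain and libraries.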

Additional observations from a re-analysis of the deposited data

How the results depend on the processing

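Among the 8 results listed next, the differences kept their direction under the alternatives run, and the first 2 are percentages, which cannot change sign. With PU.1 lists of equal length, however, the order of the 2 PU.1 lists turned at macrophage-private promoter-like peaks (eosinophil 50.7%, macrophage 41.3%). With H3K27ac lists of equal length most macrophage peaks were shared. In the order percent of eosinophil regions shared (82.6), percent of macrophage peaks shared (28.2), promoter-like minus distal share (34.2 points), eosinophil PU.1 and then macrophage PU.1 at shared minus eosinophil-private distal (19.0 and 54.3), eosinophil PU.1 at shared minus macrophage-private distal (52.0), ATAC at eosinophil-private minus macrophage-private distal (38.0) and sharing with macrophage PU.1 only minus eosinophil PU.1 only (63.0), the last chosen after seeing the data, leaving out 1 library of H3K27ac, H3K4me3 or ATAC gave ranges of 75.2 to 82.6, 28.2 to 32.3, 34.5 to 39.6, 18.7 to 25.7, 51.3 to 54.3, 46.3 to 51.9, 23.8 to 43.2 and 50.0 to 64.2. The first 2 results do not use H3K4me3, so the ends 82.6 and 28.2 of their ranges are the main values. Leaving out H3K27ac replicate 1 gave 75.2 and 32.3 for these 2, and leaving out replicate 2 gave 79.2 and 28.7. In the order of the 8 results, a −log10 q of at least 3 gave 93.8, 16.9, 23.6, 15.5, 53.3, 50.5, little change in ATAC, and 48.3. H3K27ac lists of equal length gave 62.9, 55.6, 47.6, 14.6, 38.9, 32.9, little change in ATAC, and 34.8. Regions called in either library gave 73.4, 33.8, 40.5, 27.1, 52.7, 46.9, 23.7 and 51.0. C57 H3K27ac in place of BALB/c gave 89.0, little change in the second, and then 27.6, 10.8, 51.0, 51.3, 45.6 and 67.2. An overlap of 50% of the shorter region left the first 3 within their spread and gave 18.3, 44.5, 48.8, 32.4 and 52.8 for the rest. For the 3 PU.1 differences and the last result, the higher-scoring 50% of each PU.1 list gave 26.2, 56.8, 52.5 and 60.4. PU.1 lists of equal length moved the macrophage PU.1 difference to 56.4 and the last to 61.7. Averaging over 5 strata of width gave 16.1, 52.4 and 43.6 for PU.1 and 31.4 for ATAC, and could not be run for the last. Leaving single-library peaks out of the macrophage-private class moved its eosinophil PU.1 difference to 54.4, and H3K4me3 within 1 kb moved the last result to 64.2. Added after seeing the data, a −log10 q of at least 2 for PU.1 moved the last result to 62.4 and H3K4me3 in either library to 64.9, and joining macrophage peaks moved the second result to 33.1 and the eosinophil PU.1 difference to macrophage-private regions to 46.9. The cause of these shifts was not tested. Of 475 other values, 290 were judged unchanged and 185 moved. Some of the 290 could not change, such as ATAC shares and region counts when only the PU.1 lists were altered. The 290 is therefore no measure of stability. Percentages were judged against the spread between single libraries, and counts of regions against a fixed fold change instead. No paired analysis was possible because the comparisons have no test and the macrophage list is 1 library with no replicate number.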
